A study of Mus musculus with 3 samples.

Results

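The 6 genes described here, out of 29298 in the deposited tables, encode proteins of plasminogen activation at the cell surface: Plau and Plat, the urokinase-type and tissue-type plasminogen activators; Plaur, the urokinase receptor; Serpinb2, plasminogen activator inhibitor 2; and Anxa2 and S100a10, whose proteins form the annexin A2 heterotetramer. They were chosen by name, and their levels were read in cell classes set by other genes. Plasminogen activators cleave plasminogen, a liver-made plasma protein, to the protease plasmin, which dissolves fibrin and takes part in matrix turnover. The urokinase receptor holds urokinase at the surface of leukocytes, the annexin A2 and S100A10 complex offers binding sites to tissue-type activator and plasminogen, and inhibitors of the serpin family stop the activators. In the infarcted heart, plasminogen activation is known for its part in the entry of inflammatory cells and in wound repair.

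Leukocytes had been selected on CD45, the common leukocyte surface antigen, from infarcted myocardium after permanent coronary ligation, and their polyadenylated RNA was counted as deduplicated molecules on the BD Rhapsody single-cell platform. All mice carried floxed alleles of F7, the coagulation factor VII gene: F7fl/fl CX3CR1Cre mice also carried Cre recombinase at Cx3cr1, a gene of monocytes and macrophages, and F7fl/fl WT mice did not. The 3 multiplexed libraries held 7, 5 and 6 sample tags, 1 for each biological replicate, taken at different times after infarction; the labels give no age. No label or header ties a single tag to a genotype or a time. The headers name library 1 F7_d3, which may hold a time but is not explained. Genotypes, times and hearts were therefore not compared: every test below sets cell classes of the same tags against each other.

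Of 25762 cells, 25640 had at least 200 genes and were kept, with a median of 16530 molecules per cell (18100, 14460 and 14270 in libraries 1, 2 and 3). Between 10152522 and 62344127 molecules were counted per tag. Library 1 was made on other beads and with intronic reads kept, per the file headers. Bead type, pipeline release, library and any difference in time between libraries cannot be told apart. Libraries 1 and 2 shared 4 cell indices, libraries 1 and 3 shared 3 and libraries 2 and 3 shared 0. A cell was assigned to the first class it matched: T (Cd3e, Cd3d and Cd3g summing to at least 2 molecules, 1225 cells), B (Cd79a of at least 2, 779 cells), neutrophil (S100a8 and S100a9 at 1% of molecules or more with Csf3r, 488 cells), fibroblast (Col1a1, Col3a1 and Dcn at 0.5% or more, 415 cells), macrophage (C1qa, C1qb and C1qc at 0.1% or more, 14977 cells), dendritic cell or DC (Flt3, 1362 cells) or monocyte (Ly6c2 of at least 2, 2422 cells); 3972 cells matched none. In 5 of the 7 classes all 6 markers that the rule did not use were highest in their own class; it was 5 of 6 for macrophages (not Fcgr1) and 4 of 6 for monocytes. The T and B classes also held macrophage RNA: 43.8% and 50.3% of their cells had C1q at 0.1% or more of molecules, and the summed level of 6 macrophage markers was 6158 and 7102 CPM there against 10220 CPM in macrophages. CPM is used here in its usual sense, a gene's molecules scaled to a fixed total over all cells of a class in a tag, for classes with at least 20 cells in the tag. CPM is not corrected for transcript length, and levels are compared between classes and not ranked between genes. Ratios of the molecules of 2 genes are given only to compare these ratios between classes. The p-values below cover the spread between tags, which the labels give as biological replicates, and the binomial intervals cover counting error only.

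Of the activator genes, Plau lies on chromosome 14 (GRCm38, chr14:20836660-20843385, plus strand; ENSMUSG00000021822) and was a macrophage transcript in these hearts: macrophages made up 58.4% of the cells and 68.9% of all molecules, and held 80.9% of the 44222 Plau molecules. Over the 18 tags, Plau in macrophages was 56.5 CPM at the lowest, 102 at the median and 166 at the highest. The T class had a median of 50 CPM, the B class 47.2, fibroblasts 46.3, monocytes 37.1, DCs 19.2 and neutrophils 17.1. Macrophages thus stood above every other class, with tags that overlapped those of the T class (14.3 to 103 CPM), the B class (9.78 to 206 CPM), the monocytes (4.08 to 104 CPM), the fibroblasts (29.8 to 83.9 CPM) and the neutrophils (0 to 69.0 CPM). The DC tags, 0 to 38.2 CPM, lay wholly below the macrophage tags. The next 4 classes in the order did not differ from their neighbours beyond the spread of tags: T against B had an adjusted p of 0.909 (30.5% of genes called in either direction), B against fibroblast 0.264 (66.0% called) and fibroblast against monocyte 0.582 (46.6% called, 3 tags), by edgeR's quasi-likelihood test with the tag as a block and Benjamini-Hochberg adjustment over all genes. Monocytes exceeded DCs by 1.05 on the log2 scale (SE 0.22, adjusted p = 0.000599, 8 of 10 tags; 50.3% called). The lower levels rested on library 1: without it the median was 6.18 CPM in monocytes (3 tags) and 45.8 CPM in neutrophils. The places of the T and B classes include cells holding macrophage RNA. Without their cells with C1q at 0.1% or more, the macrophage excess in Plau was 3.06 over the T class and 2.89 over the B class.

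Plat, on chromosome 8 (chr8:22757727-22782844, plus strand; ENSMUSG00000031538), was a transcript of the fibroblast class. The 415 cells of this class, 1.62% of the cells, held 57.8% of its 3852 molecules. Besides 6 fibroblast markers (12000 to 21020 CPM summed), the class carried 5 mesothelial markers (5.68 to 519 CPM, median 322). It also carried 4 mural markers (42.6 to 447 CPM, median 72.5). The class may thus hold more than fibroblasts, and which of its cells carried Plat was not tested. Its level in fibroblasts was 78.1 CPM at the lowest, 166 at the median and 216 at the highest of 9 tags. In the other classes the median did not pass 5.65 CPM (DCs), and it was 3.30 in the T class, 2.63 in the B class, 2.25 in monocytes, 1.62 in macrophages and 0 in neutrophils. No tag of another class reached the lowest fibroblast tag; the nearest was 48.6 CPM, in the monocytes of library 1, tag 9. Fibroblasts exceeded DCs, the next class, by 4.12 (SE 0.31; adjusted p = 5.02e-08, 7 of 7 tags; 64.0% of genes called), a 17.4-fold difference. After every cell was thinned to 2000 molecules, 21.0% of fibroblasts had a Plat molecule (73.5% unthinned; exact Clopper-Pearson 95% interval 17.2 to 25.3%). The share was 0.250% of macrophages, 0.411% of T cells and 0.206% of neutrophils (1.58%, 3.10% and 0.410% unthinned). The T class itself held macrophage RNA, and the neutrophil share rests on 1 of 485 cells. These shares therefore cannot show whether macrophage Plat lay above background at this depth.

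**Figure D1:**
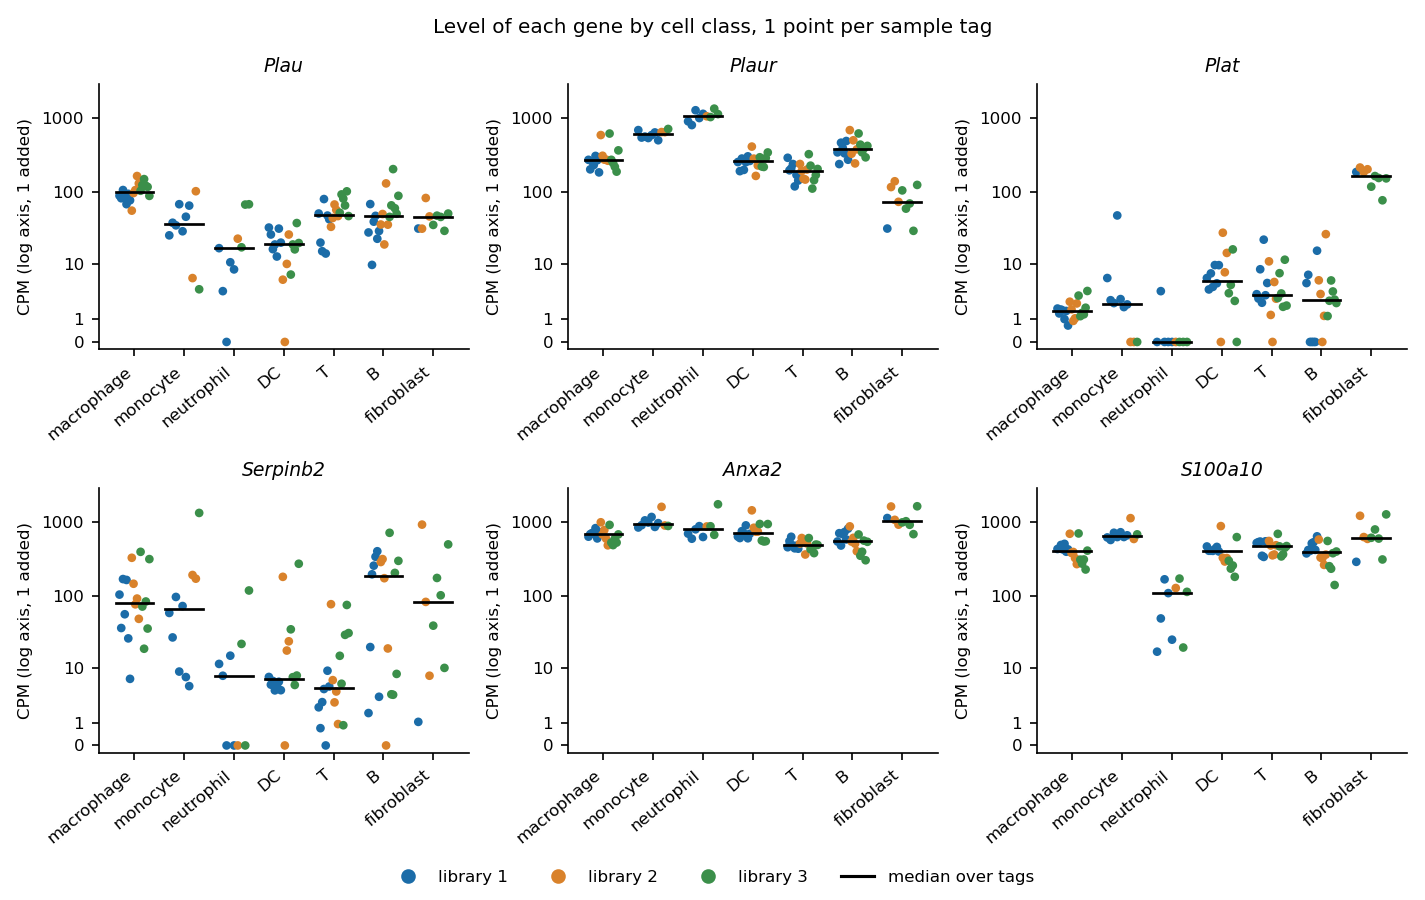
Level of each gene in 7 cell classes, in CPM on a log axis with 1 added; each point is 1 sample tag, coloured by library, and the black bar is the median over tags. Plau is highest in macrophages (median 102 CPM), Plaur in neutrophils (1056 CPM) and Plat in fibroblasts (166 CPM), while Serpinb2 spreads widely between tags of the same class.

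The receptor gene Plaur, on chromosome 7 (chr7:24462484-24475968, plus strand; ENSMUSG00000046223), had another order. Neutrophils had 805 CPM at the lowest, 1056 at the median and 1337 at the highest of 9 tags; monocytes had 504, 616 and 714 over 10 tags, so that no neutrophil tag fell as low as the highest monocyte tag. Below them came the B class (median 385 CPM), macrophages (273), DCs (261), the T class (197) and fibroblasts (74.5). Macrophage tags ran from 186 to 619 CPM and overlapped every class except neutrophils and fibroblasts (29.8 to 141 CPM). Each step of this order but macrophage over DC (adjusted p = 0.187) passed the test. Neutrophils exceeded monocytes by 1.00 (SE 0.14; adjusted p = 2.19e-05, 6 of 6 tags; 56.9% of genes called), monocytes exceeded the B class by 0.79 (SE 0.12; adjusted p = 0.000102; 36.1% called), DCs the T class by 0.56 (adjusted p = 6.77e-05, 13 of 16 tags; 46.1% called) and the T class fibroblasts by 1.20 (adjusted p = 0.000635, 9 of 9 tags; 67.9% called). Without library 1 the step from monocytes to the B class was lost (0.73, adjusted p = 0.246, 3 tags), and without library 3 that from the T class to fibroblasts (1.01, adjusted p = 0.068). With at least 50 cells per tag and class the step from DCs to the T class was lost (0.36, adjusted p = 0.217, 4 tags). Neutrophils had the fewest molecules per cell (median 3997, against 20550 in macrophages), and still 70.3% of them had a Plaur molecule after thinning to 2000 molecules, against 63.6% of monocytes, 35.2% of macrophages and 13.2% of fibroblasts (unthinned 81.8%, 93.3%, 78.1% and 51.8%).

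The ratio of receptor to activator transcripts differed accordingly. Plaur molecules per Plau molecule had a median of 2.52 in macrophages (1.61 to 10.5 over 18 tags), 15.0 in monocytes (6.24 to 175) and 55.9 in neutrophils (16.4 to 212 over 8 tags; the ninth had no Plau molecule). The macrophage and neutrophil ranges did not overlap, but no neutrophil tag held more than 14 Plau molecules. The ratio of 212 rests on 1 Plau molecule (library 1, tag 7), as does that of 175 in monocytes (library 3, tag 12).

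Serpinb2, on chromosome 1 (chr1:107511423-107535478, plus strand; ENSMUSG00000062345), encodes an inhibitor of urokinase and tissue-type activator that is mostly kept inside the cell. Of the 6 genes it had the widest range over macrophage tags, as a ratio of highest to lowest: macrophages had 6.81 CPM at the lowest, 80.4 at the median and 392 at the highest of 18 tags. Medians were 184 CPM in the B class, 82.9 in fibroblasts and 65.7 in monocytes, against 7.59 in neutrophils, 6.77 in DCs and 4.94 in the T class. Single libraries moved these medians: without library 1 it was 191.4 CPM in monocytes, above the 173 CPM of the B class, and 17.7 CPM in DCs. Without library 3 it was 45.2 CPM in fibroblasts and 3.8 CPM in neutrophils. The first 4 classes in this order did not differ from their neighbours beyond the spread of tags: B against fibroblast had an adjusted p of 0.896, fibroblast against macrophage 0.578 and macrophage against monocyte 0.212.

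In each of these classes few cells carried the transcript. Only 9.72% of macrophages had a Serpinb2 molecule (3.93% after thinning to 2000 molecules, against 1.73% of T cells and 2.47% of neutrophils thinned alike), and the 150 macrophages with most of it, 1%, held 68.9% of the 36247 macrophage molecules, up to 555 in a cell. For Plau the top 1% held 16%, and for Anxa2 6.37%. In the B class, fibroblasts and unclassed cells Serpinb2 lay mainly in cells with at least 2 molecules of Prg4 and Gata6 together, genes of the macrophages of body cavities. In the B class 30 such cells (3.85%) held 89.9% of its 2391 molecules, among fibroblasts 264 such cells (63.6%) held 95.3% of 1674, and among the unclassed cells 198 (4.98%) held 68.6% of 10750. In monocytes it did not: 20 such cells (0.826%) held 28.7% of 1836 molecules. Fibroblasts also express Prg4, so this count does not mark macrophages in that class. In the B class 392 cells had C1q at 0.1% or more. With them the macrophage level differed from that of the B class by -0.20 (adjusted p = 0.695), and without them it was higher by 1.49 (adjusted p = 0.0291, 10 tags).

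Anxa2, on chromosome 9 (chr9:69453620-69491795, plus strand; ENSMUSG00000032231), was spread over all classes. Fibroblasts had a median of 1010 CPM (678 to 1603), monocytes 923 (832 to 1575), neutrophils 787 (588 to 1705), DCs 712 (541 to 1414), macrophages 671 (480 to 978), the B class 548 (302 to 862) and the T class 482 (361 to 624.6). All neighbouring ranges overlapped. Of the 6 neighbouring pairs in this order, macrophage over B passed the test (0.29, SE 0.05; adjusted p = 7.16e-05, 16 of 18 tags), and the other 5 did not: fibroblast and monocyte (adjusted p = 0.13, 3 tags), monocyte and neutrophil (0.985), neutrophil and DC (0.101; 64.0% of genes called), DC and macrophage (0.203) and B and T (0.146).

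S100a10, on chromosome 3 (chr3:93555080-93564643, plus strand; ENSMUSG00000041959), encodes the partner of annexin A2 and was lowest in neutrophils. Monocytes had a median of 637 CPM (566 to 1111), fibroblasts 606 (288 to 1248), the T class 473 (335 to 684), DCs 400.4 (181 to 869), macrophages 400.3 (227 to 692) and the B class 386 (140.3 to 633). Neutrophils had 17.1 CPM at the lowest, 109 at the median and 171 at the highest. The B class exceeded neutrophils by 2.18 (SE 0.27; adjusted p = 5.7e-07, 9 of 9 tags; 62.4% of genes called), and fibroblasts the T class by 0.59 (adjusted p = 0.033, 6 of 9 tags); the other 4 neighbouring pairs did not pass. The difference of the T class from fibroblasts was lost without library 2 (-0.32, adjusted p = 0.339) and without library 3 (-0.55, adjusted p = 0.236).

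The ratio of the 2 subunit transcripts therefore differed across leukocytes. Anxa2 molecules per S100a10 molecule had a median of 1.68 in macrophages (1.3 to 2.30), 1.46 in monocytes, 1.41 in the B class, 1.04 in the T class (0.794 to 1.57) and 11.9 in neutrophils (4.70 to 40.3). The lowest neutrophil tag lay above the highest tag of each other class, the nearest being a fibroblast tag at 3.87. The neutrophil ratio of 40.3 (library 1, tag 6) rests on 3 S100a10 molecules, and no neutrophil tag held more than 51. After thinning to 2000 molecules, 68.7% of neutrophils had an Anxa2 molecule and 7.22% had an S100a10 molecule, against 58.7% and 43.8% of macrophages (unthinned 86.9% and 15.0% against 92.9% and 84.9%).

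Macrophages were then tested against each class in turn. Against monocytes (10 tags, 11138 genes), Plau was higher in macrophages, by 0.95 on the log2 scale (SE 0.18; adjusted p = 0.000226, 10 of 10 tags), and 4 members were lower: Plaur by 1.19 (SE 0.11; adjusted p = 2.8e-07, 10 of 10 tags), S100a10 by 0.68, Anxa2 by 0.57 (both 10 of 10 tags) and Plat by 1.61 (adjusted p = 0.00978, 7 of 10 tags). Over all genes 32.5% were higher and 32.0% lower. Serpinb2 was not called (0.47, adjusted p = 0.212, higher in 8 of 10 tags), and its 10 monocyte values ran from 5.24 CPM to 1305 CPM, the latter from 24 cells of library 3, tag 12. Without cells holding 2 or more Prg4 and Gata6 molecules in either class it was lower in macrophages (-1.3, adjusted p = 0.0185), and without library 3 it was higher (0.79, adjusted p = 0.00792). Serpinb2 was also higher with at least 50 cells per tag and class (1.015, adjusted p = 0.000525, 7 tags), which leaves out the tag with 24 cells. The Plat difference was lost with DESeq2 (-1.04, adjusted p = 0.0661); 227 monocyte molecules of Plat, at 48.6 CPM, came from library 1, tag 9, where the next highest tag had 6.19 CPM. Most monocytes (2224 of 2422) came from library 1. Without that library 3 tags remained and 3 of the 6 genes were called.

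Against neutrophils (9 tags, 10346 genes), Plau was higher in macrophages by 2.00 (SE 0.32; adjusted p = 2.26e-06), S100a10 by 2.33 (SE 0.23; adjusted p = 1.42e-10) and Serpinb2 by 2.82 (SE 0.33; adjusted p = 5.6e-09), each in 9 of 9 tags. Plaur was lower by 1.98 (SE 0.16; adjusted p = 1.74e-12, 9 of 9 tags). Anxa2 did not pass (-0.29, adjusted p = 0.106, lower in 6 of 9 tags) and Plat had too few molecules to be tested. Here 39.8% of all genes were higher and 19.9% lower, and the median over all genes was 0.56 with TMM scaling and 0.73 with DESeq2's size factors, a shift of 0.17. The 3 higher members lay above the median gene under both scalings, and Anxa2 and Plaur lay below it. Without Prg4 and Gata6 cells the Serpinb2 difference fell to 0.69 (adjusted p = 0.161). Anxa2 passed as lower with the macrophage gate at 0.5% C1q (-0.51, adjusted p = 0.00663). It also did with at least 50 cells per tag and class (-0.57, adjusted p = 0.0482, 3 tags).

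Against DCs (16 tags, 10799 genes; 36.1% higher, 29.7% lower), Plau was higher by 2.28 (SE 0.15; adjusted p = 3.26e-12) and Serpinb2 by 2.48 (SE 0.33; adjusted p = 4.76e-07), each in 16 of 16 tags, and Plat was lower by 2.25 (SE 0.33; adjusted p = 2.77e-06, 14 of 16 tags). Plaur (0.11, 95% interval -0.03 to 0.25), Anxa2 (-0.10, -0.23 to 0.03) and S100a10 (0.11, -0.02 to 0.24) were not called. Setting the macrophage gate at 0.5% C1q reversed Plaur to -0.38 (adjusted p = 4.11e-05) and S100a10 to -0.27 (adjusted p = 0.000541), and took Serpinb2 to 0.46 (adjusted p = 0.311). Anxa2 passed as lower under that gate (-0.33, adjusted p = 0.000292) and without library 1 (-0.28, adjusted p = 0.0155). Without a filter on low counts Plaur (0.20, adjusted p = 0.0348) and S100a10 (0.20, adjusted p = 0.0201) passed as higher. Without Prg4 and Gata6 cells Serpinb2 was higher by 0.96 (adjusted p = 0.0145).

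Against the T class (18 tags, 10844 genes; 33.9% higher, 32.4% lower), Serpinb2 was higher by 3.11 (SE 0.37; adjusted p = 9.91e-08, 17 of 18 tags), Plau by 1.05 (SE 0.13; adjusted p = 1.17e-07, 18 of 18 tags), Plaur by 0.66 (SE 0.10; 16 of 18 tags) and Anxa2 by 0.51 (SE 0.06; 17 of 18 tags), while Plat was lower by 1.32 (adjusted p = 0.00135, 14 of 18 tags) and S100a10 was not called (-0.14, adjusted p = 0.141). When T-class cells with C1q at 0.1% or more were left out, the Plau difference grew to 3.06 (adjusted p = 1.84e-10) and S100a10 became lower in macrophages (-0.35, adjusted p = 0.00166). S100a10 also passed as lower without library 1 (-0.24, adjusted p = 0.0414), with at least 50 cells per tag and class (-0.24, adjusted p = 0.0126), without the highest doublet scores (-0.23, adjusted p = 0.0131), with the 0.5% gate (-0.42, adjusted p = 7.17e-05) and without Prg4 and Gata6 cells (-0.29, adjusted p = 0.000818). Without Prg4 and Gata6 cells in either class Serpinb2 was higher by 1.12 (adjusted p = 0.00122).

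Against the B class (18 tags, 10570 genes; 25.1% higher, 24.5% lower), Plau was higher by 0.96 (SE 0.16; adjusted p = 1.95e-05, 16 of 18 tags) and Anxa2 by 0.29 (16 of 18 tags), and Plaur was lower by 0.41 (SE 0.07; adjusted p = 2.95e-05, 17 of 18 tags). S100a10 (0.10, adjusted p = 0.222) and Serpinb2 were not called, and Plat was not tested. Without B-class cells with C1q the Plau difference grew to 2.89 (adjusted p = 3.85e-07, 10 tags), Anxa2 to 0.68, and S100a10 passed (0.47, adjusted p = 0.0321). Without Prg4 and Gata6 cells in either class the Serpinb2 difference was 0.79 (adjusted p = 0.0512), and with the macrophage gate at 0.5% C1q it was -0.98 (adjusted p = 0.0338) and that of Anxa2 0.07 (adjusted p = 0.297).

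Against fibroblasts (9 tags, 11258 genes; 34.6% higher, 32.9% lower), Plaur was higher by 1.99 (SE 0.19; adjusted p = 1.2e-07) and Plau by 1.46 (SE 0.12; adjusted p = 2.1e-08), each in 9 of 9 tags. Plat was lower by 6.34 (SE 0.24; adjusted p = 2.13e-12, 9 of 9 tags), an 81.2-fold difference, Anxa2 by 0.73 (SE 0.12; 9 of 9 tags) and S100a10 by 0.76 (SE 0.22; adjusted p = 0.00684, 7 of 9 tags). Serpinb2 was not called (0.41, adjusted p = 0.578). The S100a10 call was lost without library 2 (-0.50, adjusted p = 0.136) and without library 3 (-0.73, adjusted p = 0.118).

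**Figure D2:**
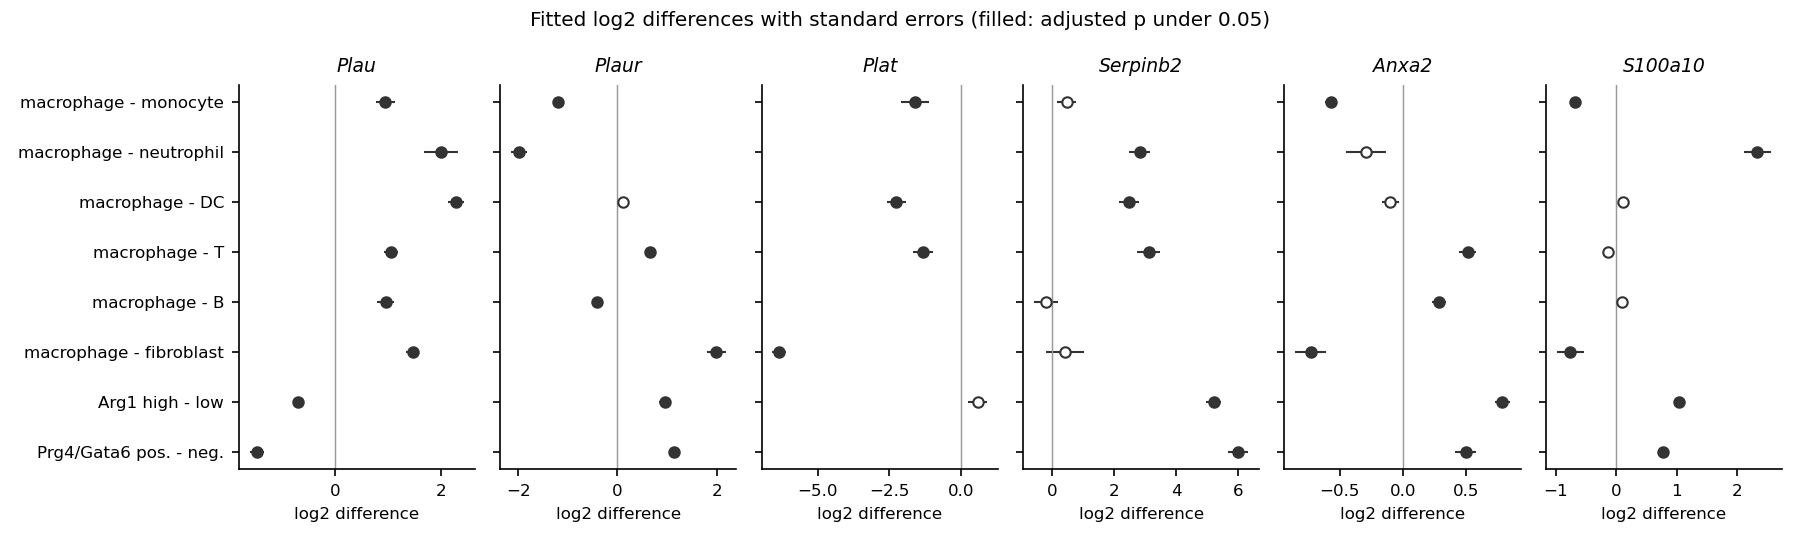
Fitted log2 differences (x axis) with standard errors for the 6 genes in 8 comparisons (y axis), macrophages against each other class and macrophages on the 2 sides of each threshold; filled points passed an adjusted p of 0.05 and missing points were not tested. Plau lies right of 0 against all 6 classes and left of 0 in both comparisons within macrophages, where Serpinb2 lies at 5.21 and 6.01.

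Within macrophages the 6 genes did not move together. The macrophages with at least 5 molecules of Arg1, the arginase gene of wound macrophages, numbered 5181 of 14977, and the share per tag ran from 6.21% to 72.7% (median 30.8%). Serpinb2 was 11.4 CPM at the lowest, 249 at the median and 695 at the highest in Arg1-high macrophages, and 2.16, 5.41 and 18.5 CPM in Arg1-low macrophages. Plaur had 189, 411 and 820 CPM against 156, 209.9 and 309 CPM, and S100a10 413, 549 and 922 CPM against 191, 276 and 396 CPM. Anxa2 had 595, 851 and 1263 CPM against 403, 498 and 632 CPM. The S100a10 ranges did not overlap, and those of the other 3 did.

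Plau went the other way, with 26.3, 76.7 and 148 CPM in Arg1-high and 82.6, 123 and 179.9 CPM in Arg1-low macrophages. In the test over 18 tags, Serpinb2 was higher by 5.21 (SE 0.24; adjusted p = 5.92e-13), S100a10 by 1.03 (SE 0.08; adjusted p = 1.43e-09), Plaur by 0.96 (SE 0.12; adjusted p = 7.53e-07) and Anxa2 by 0.79 (SE 0.06; adjusted p = 8.22e-10), each in 18 of 18 tags, and Plau was lower by 0.68 (SE 0.10; adjusted p = 9.77e-06), also in 18 of 18. Over all 11342 genes 26.3% were higher and 26.4% lower. Plat did not pass (0.59, adjusted p = 0.135). Arg1-high macrophages were deeper, with a median of 29090 molecules per cell against 17310, and a threshold in molecules takes in deeper cells more easily. They also had more of the 6 neutrophil markers that the class rule did not use, none of them at 0 (127 to 2944 CPM, median 730.2, against 66.3 to 243 CPM, median 106), and more of 6 cavity macrophage markers (1133 to 8620 CPM against 247 to 737.5 CPM); their part in these differences was not tested. Splitting at 0.025% of a cell's molecules instead gave 5.63 for Serpinb2, 1.07 for Plaur and -0.77 for Plau.

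The first 250 bases before the RefSeq start sites (RefSeq table, GRCm38.p6) were available for 3 of the 6 genes, Plaur, Serpinb2 and Anxa2, which were all higher in Arg1-high macrophages; they are shown because each holds the AP-1 motif TGANTCA (palindromic, so that both strands were searched; no other motif was), in capitals below. Of all 32851 promoter windows of 250 bases 2217 (6.75%) hold it. For Anxa2 the 187 bases before the first annotated transcript start are given. The plus strand is given 5′ to 3′, for chr7:24462233-24462482, chr1:107511173-107511422 and chr9:69453433-69453619.
Plaur: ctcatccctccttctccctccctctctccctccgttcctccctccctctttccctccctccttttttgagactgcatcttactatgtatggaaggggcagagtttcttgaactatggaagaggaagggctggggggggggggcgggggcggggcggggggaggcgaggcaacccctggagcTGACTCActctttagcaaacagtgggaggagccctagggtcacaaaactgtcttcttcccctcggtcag
Serpinb2: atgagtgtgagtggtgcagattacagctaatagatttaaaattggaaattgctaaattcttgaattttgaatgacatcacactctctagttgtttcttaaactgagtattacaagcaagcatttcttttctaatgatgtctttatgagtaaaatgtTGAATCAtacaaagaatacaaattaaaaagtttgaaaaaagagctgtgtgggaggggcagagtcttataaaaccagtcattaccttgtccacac
Anxa2: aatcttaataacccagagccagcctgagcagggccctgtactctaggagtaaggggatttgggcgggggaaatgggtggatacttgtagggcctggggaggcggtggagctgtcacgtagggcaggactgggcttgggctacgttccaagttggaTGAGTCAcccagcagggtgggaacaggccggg
The first base of the match lies 69 bases before the RefSeq start in Plaur, 94 in Serpinb2 and 95 in Anxa2. A match is a description of the letters; no binding was measured. Plau, Plat and S100a10 had no entry in the table.

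Macrophages with at least 2 molecules of Prg4 and Gata6 together numbered 652; Gata6 encodes the transcription factor of peritoneal and pleural macrophages. Their share per tag ran from 0.903% to 14.2% (median 3.84%). Of 6 further cavity macrophage markers (Icam2, Selp, Fn1, Garnl3, Alox15 and Naip1), the summed level was 5774 to 12800 CPM in these cells and 495 to 4060 CPM in the other macrophages, with none of the 6 at 0. Neutrophil markers moved with the same split: the summed level of Retnlg, Cxcr2, Il1r2, Mmp9, Hdc and Slpi was 1455 to 7001 CPM in these cells and 73.1 to 753 CPM in the other macrophages, with no overlap and none at 0, against 13100 to 20260 CPM in the neutrophil class, while the 6 macrophage markers summed to 3220 to 11700 CPM and 7624 to 17680 CPM. Whether these markers stand for neutrophil RNA, and what part they have in the differences below, was not tested. Serpinb2 was 418 CPM at the lowest, 1224 at the median and 2936 at the highest over 14 tags, against 2.36 to 78.8 CPM in the remaining macrophages of 18 tags: every tag of the first group lay above every tag of the second. Plaur was 397, 606 and 989 CPM against 176 to 547 CPM, and S100a10 353, 649 and 1070 CPM against 224 to 679.9 CPM, both with overlap.

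Plau was 14.5 CPM at the lowest, 30.8 at the median and 86.5 at the highest in Prg4 and Gata6 cells, against 68.6 to 171 CPM in the others. In the test over 14 tags, Serpinb2 was higher by 6.01 (SE 0.32; adjusted p = 3.44e-11), a 64.3-fold difference, Plaur by 1.14 (SE 0.08; adjusted p = 1.06e-09) and S100a10 by 0.77 (SE 0.09; adjusted p = 3.4e-07), each in 14 of 14 tags, and Anxa2 by 0.50 (SE 0.08; adjusted p = 3.77e-05, 13 of 14 tags). Plau was lower by 1.46 (SE 0.14; adjusted p = 4.34e-08, 14 of 14 tags). Over all 10570 genes 20% were higher and 21.9% lower. These cells were deeper too, with a median of 29600 molecules against 20220. At a threshold of 0.01% of molecules the differences were 5.92 for Serpinb2, 1.22 for Plaur and -1.92 for Plau.

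**Figure D3:**
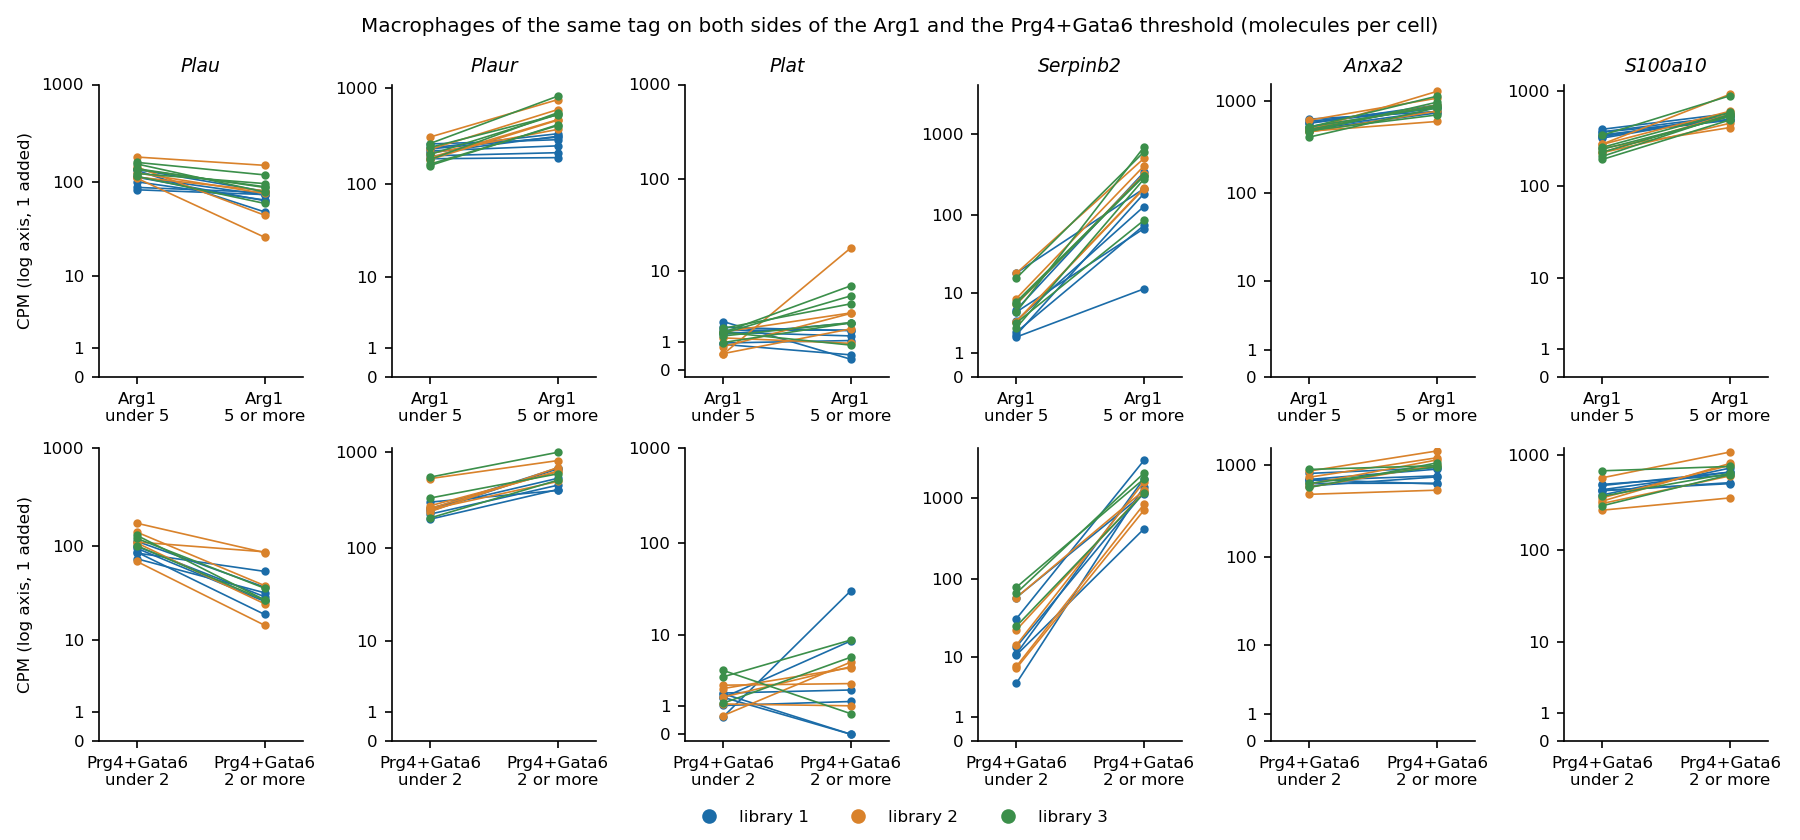
Levels of the 6 genes, in CPM on a log axis with 1 added, in macrophages of the same tag below and above 5 Arg1 molecules per cell (upper row, 18 tags) and below and above 2 Prg4 and Gata6 molecules per cell (lower row, 14 tags); each line is 1 tag, coloured by library. Every Serpinb2 line rises and every Plau line falls, in both rows.

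The 2 thresholds met in the same cells. Of the 652 Prg4 and Gata6 macrophages 588 (90.2%) were also Arg1-high, and these 588 cells, 3.93% of macrophages with 5.28% of their molecules, held 79.9% of macrophage Serpinb2. Summed over tags, Serpinb2 was 1495 CPM in these cells, 42.2 CPM in the 4593 macrophages with Arg1 alone, 112 CPM in the 64 with Prg4 and Gata6 alone and 4.59 CPM in the 9732 with neither. The macrophages with neither held 65.6% of Plau, in 54.2% of the molecules, at 118 CPM, against 78.1 CPM with Arg1 alone and 30.7 CPM with both. Plaur, Anxa2 and S100a10 were less concentrated, with 12.3%, 7.57% and 8.84% of their molecules in the cells above both thresholds.

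Among macrophages with fewer than 2 Prg4 and Gata6 molecules the Arg1 differences persisted, over 18 tags: Serpinb2 was higher by 3.02 (adjusted p = 9.67e-10), S100a10 by 0.98, Plaur by 0.81 (adjusted p = 7.5e-06) and Anxa2 by 0.74, and Plau was lower by 0.55 (adjusted p = 4.21e-05). The Serpinb2 difference was thus 5.21 with the Prg4 and Gata6 cells and 3.02 without them, against 0.79 and 0.74 for Anxa2. The Arg1-high cells left still had more of the 6 cavity macrophage markers, at 1014 to 7028 CPM against 247 to 732 CPM. Their neutrophil markers were higher at the median too (420 against 104 CPM), with ranges that overlapped. What part these markers have in the remaining differences was not tested.

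**Figure D4:**
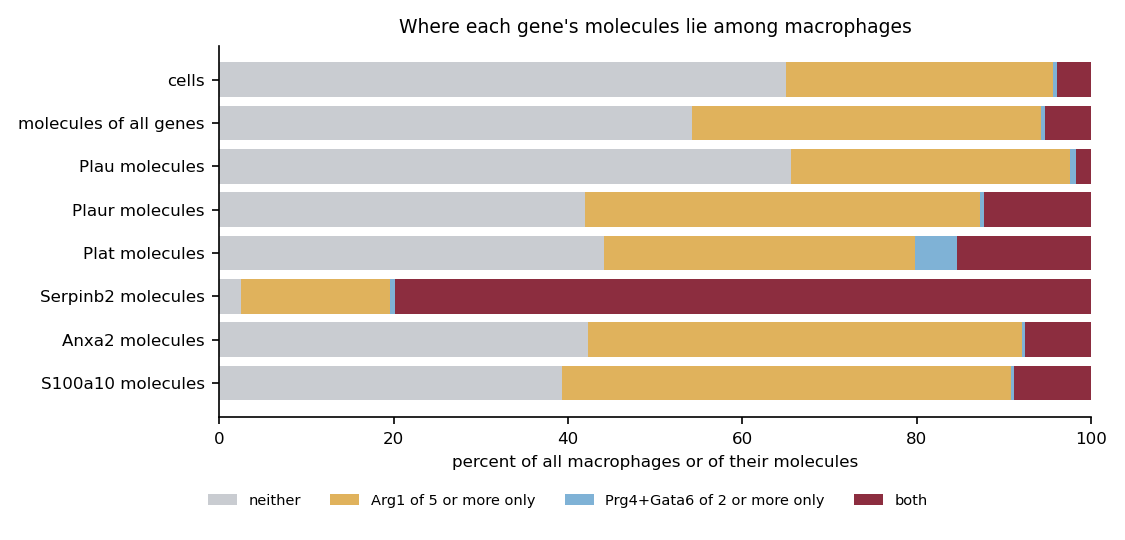
Share of macrophages, of all their molecules and of the molecules of each gene (x axis, percent) that lies in macrophages with neither, 1 or both of Arg1 at 5 or more and Prg4+Gata6 at 2 or more molecules. The cells above both thresholds hold 79.9% of Serpinb2 but 1.66% of Plau.

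Levels were also read by the number of marker molecules. In macrophages with 0, 1, 2, 3 to 4 and at least 5 molecules of Prg4 and Gata6 (13778, 547, 140, 98 and 414 cells), Serpinb2 was 18.2, 68.0, 175, 481 and 1983 CPM. Plau was 102, 90.4, 78.8, 56.1 and 24.7 CPM, and Plaur 248, 319, 399.7, 582 and 675 CPM over the same bins. By Arg1, Serpinb2 was 4.35 CPM in macrophages without a molecule and 6.87 CPM with 1 to 4. With 5 to 9 it was 9.82 CPM, with 10 to 29 it was 32.5 CPM and with 30 or more 352 CPM. Just outside and inside the Arg1 threshold, at 4 and 5 molecules, it was 18.4 CPM (293 cells) and 8.41 CPM (272 cells), and around the Prg4 and Gata6 threshold, at 1 and 2, it was 68.0 and 175 CPM. Plaur by Arg1 was 219, 199, 220.4, 248 and 426 CPM over the 5 Arg1 bins, so that only the last stood far from the first. Anxa2 was 474 CPM without Arg1 and 942 CPM at 30 or more molecules, and S100a10 273 and 631 CPM. These sums pool all tags and carry no test.

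**Figure D5:**
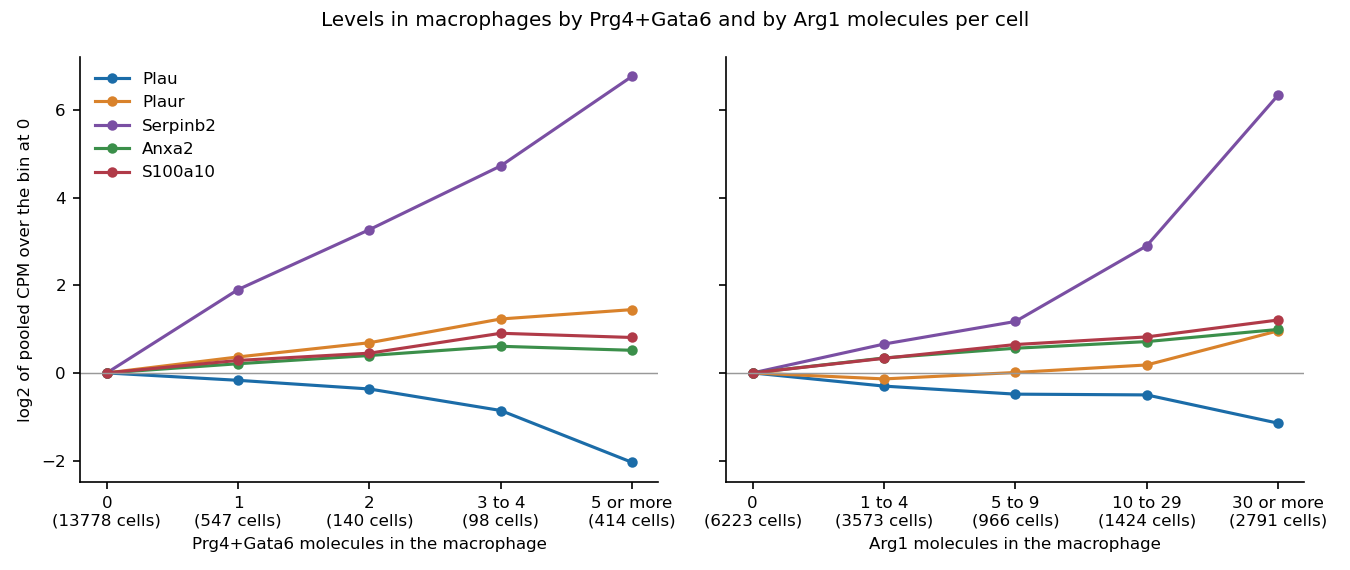
Pooled level of 5 genes in macrophages relative to the macrophages without a molecule of the marker (y axis, log2 ratio of CPM), by Prg4+Gata6 molecules per cell (left) and Arg1 molecules per cell (right), with the number of cells in each bin on the x axis. Serpinb2 is higher in each successive bin of both panels and Plau is lowest in the last bin, at 24.7 CPM for Prg4+Gata6.

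In macrophages the highest Serpinb2 values were 392 CPM (library 3, tag 7), 326 CPM (library 2, tag 1) and 313 CPM (library 3, tag 12), and the highest Plaur values 619, 591 and 368 CPM came from the same 3 tags. Tags 7 of library 3 and 1 of library 2 were also highest in S100a10, at 692 and 686 CPM, and in Anxa2, at 902 and 978 CPM; Plau in these was 105 CPM and, lowest of all 18 tags, 56.5 CPM. The same 3 tags had 10.7%, 14.2% and 8.06% Prg4 and Gata6 macrophages, against a median of 3.84%. Those cells held a median of 83.7% of a tag's macrophage Serpinb2, from 30.3% (library 3, tag 9) to 91.2% (library 2, tag 3). In macrophages above neither threshold, Serpinb2 was 2.13 CPM at the lowest, 4.68 at the median and 15.9 at the highest tag, again library 3, tag 7. Genotype and time of these tags are unassigned, so the tag differences carry no comparison.

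Genes with the most similar pattern were named by the Pearson correlation of log2(CPM + 10) among 10408 genes, leaving out the genes of the class rule. Over 98 sums of tag and class, which share tags and differ in depth, these included Gdf15, Itm2b and Tmem86a for Plau (0.751, 0.75 and 0.737), Tgm2 and Trem1 for Plaur (0.9 and 0.9), Emp2, Cdc42ep1 and Egfr for Plat (0.932, 0.927 and 0.927), Ackr3, Slc7a2 and Saa3 for Serpinb2 (0.728, 0.69 and 0.678), S100a6, Flna and Myadm for Anxa2 (0.762, 0.672 and 0.665) and Crip1, Prdx2 and Psmb5 for S100a10 (0.884, 0.835 and 0.82). Over the 18 macrophage sums centred within library they included Hnrnpu and Eid1 for Plau (0.891 and 0.856), St3gal1, Gm49368 and Cd164 for Plaur (0.97 to 0.959), Lpar1, Selp and Saa3 for Serpinb2 (0.942 to 0.928), Pycard, Znhit1 and Glipr2 for Anxa2 (0.946 to 0.932) and Glipr2, Sept11 and S100a11 for S100a10 (0.98 to 0.974). For Plat they were Retnla, Nrbp1 and Dennd3 (0.901 to 0.842). Macrophage tags held 11 to 59 Plat molecules, at no more than 3.82 CPM, which is below the 10 added before the log. Selp is 1 of the 6 cavity markers above. No member was among the 3 genes most like another member. Among the macrophage sums the members themselves correlated at 0.929 for Anxa2 with S100a10, 0.912 for Plaur with S100a10 and 0.8 for Serpinb2 with Plaur, and Plau at -0.748 with Anxa2 and -0.569 with Plaur; these 18 points share the total molecules of each tag.

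The wider plasminogen pathway was read in a list of 28 genes (plasminogen and its receptors, other inhibitors, contact and fibrin genes, integrins, vitronectin, formyl peptide receptors and the clearance receptor Lrp1), and the neighbouring families in a list of 16 other annexin and S100 genes; 14 to 17 and 12 to 14 of them had enough molecules to be tested, depending on the comparison. In Arg1-high macrophages 12 of 16 tested pathway genes were higher and 2 lower, beside 26.3% and 26.4% of all genes, with a median difference of 0.57 against -0.01 over all genes. Among them were Fpr1, a formyl peptide receptor (3.09, SE 0.25), and Itgam, the CD11b chain of the integrin Mac-1 (1.72, SE 0.15; 1645 against 448 CPM at the median), both in 18 of 18 tags. Of 12 tested annexin and S100 genes 10 were higher and 1 lower, led by S100a4 (1.12), Anxa3 (0.93) and S100a6 (0.85), so that S100a10 at 1.03 and Anxa2 at 0.79 rose beside most of their relatives. In Prg4 and Gata6 macrophages 8 of 15 pathway genes were higher and 1 lower, beside 20% and 21.9% of all genes, with Fpr1 at 2.67 (SE 0.29) and Itgam at 2.12 (SE 0.11; 3189 against 634 CPM), both in 14 of 14 tags. The annexin and S100 list had 8 of 12 higher (S100a4 1.03, S100a1 0.98, Anxa3 0.88) and 2 lower, Anxa5 (-0.83) and Anxa4 (-0.54), both in 14 of 14 tags.

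Against monocytes 2 of 15 pathway genes were higher in macrophages, among them the integrin gene Itgb1 (0.55, 10 of 10 tags), and 6 were lower, with Fpr2 at -1.47, the thrombomodulin gene Thbd at -0.83 and Itga5 at -0.52; 5 of 12 annexin and S100 genes were higher (Anxa3 1.01, S100a1 0.87) and 4 lower (S100a11 -1.29, S100a4 -1.27, S100a6 -1.18). For the annexin and S100 list both shares lie near the 32.5% higher and 32.0% lower of all genes. The pathway list leaned lower, with a median difference of -0.25 against 0.008 over all genes. Against neutrophils, where 39.8% of all genes were higher and 19.9% lower, 7 of 14 pathway genes were higher (F13a1 2.61 and Lrp1 2.48 among them) and 3 lower (Fpr2 -5.02, Fpr1 -4.62), and of the annexin and S100 genes 9 of 12 were higher and 3 lower, with S100a11 at -3.13 and S100a6 at -2.05 opposite in direction to S100a10. Against DCs 14 of 16 pathway genes were higher and 1 lower, beside 36.1% and 29.7% of all genes. Against the T class 12 of 16 were higher and 3 lower (33.9% and 32.4% of all genes), and against the B class 10 and 3 of 16 (25.1% and 24.5%). Itgb3 was lower in macrophages in these 3 comparisons (-2.18, -3.36 and -2.96). The annexin and S100 counts were 7 higher and 5 lower of 12 against DCs, 6 and 3 against the T class and 7 and 1 against the B class. Against fibroblasts, where 34.6% of all genes were higher and 32.9% lower, 7 of 17 pathway genes were higher in macrophages (Itgam 4.70 and Itgb2 4.29 among them) and 8 lower, led by Serping1, the C1 inhibitor gene (-8.43), the collagen receptor gene Mrc2 (-8.22) and Serpine2, protease nexin 1 (-7.41), each in 9 of 9 tags. Of 14 annexin and S100 genes 3 were higher (Anxa4 1.81, Anxa11 1.18 and S100a4 1.01) and 7 lower (S100a16 -7.46, Anxa8 -7.23 and S100a11 -1.81).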

How the data were processed

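Single-cell RNA of CD45-selected cells was counted in 18 sample tags of 3 multiplexed libraries. The deposited tables hold counts of molecules per cell and gene, made by the authors with the BD Rhapsody WTA Analysis Pipeline (version 2.0b1 for library 1 and 1.10 for libraries 2 and 3), with errors in molecular identifiers corrected, on GRCm38, per the file headers; for the aligner's settings: not given in the sources used here. Library 1 used enhanced beads with intronic reads kept and the others original beads, per the file headers. Cells with under 200 genes were left out. No doublet removal is recorded in the headers; Scrublet's own threshold called 0, 1 and 0 cells and had thus not worked, so leaving out the 2% of cells with the highest scores was an alternative.

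Molecules were summed per tag and class where a class had at least 20 cells in the tag. Classes were compared within tags by edgeR 4.0.16 (R 4.3.3; TMM, filterByExpr, quasi-likelihood F test, tag as block), with Benjamini-Hochberg adjustment over all genes tested and calls at 0.05; the scripts were tested on simulated data. SEs were taken from the F statistic. Shares of cells were also given after thinning each cell to 2000 molecules. Positions come from GENCODE on GRCm38 and promoters from RefSeq (GRCm38.p6). Named genes were the 6 members, up to 3 genes per direction and list with the largest fold among those called and moved alike in at least 90% of tags, and the 3 genes most like each member. A few genes that this rule names are not reported here. The members, lists and rules were chosen with earlier results of these data known. The tag is shared by the classes compared because each tag is 1 biological replicate, per the labels; replicate numbers in the alternatives stand for the 3 libraries. Alternatives covered scaling, DESeq2 1.42.0, low-count filter, block, cell minimum, gates, doublets and libraries.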

Additional observations from a re-analysis of the deposited data

Results flagged for a closer look

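In 14 of 90 checks, each of 1 gene over the tags of 1 class and library, 1 tag lay far from the others (Dixon's test at its 95% critical value). Chance gives about 1 in 20 for normal, independent values, but here the same tags recur over genes and classes. Library 2, tag 1 stood out 5 times: Plaur in macrophages was 591.4 CPM (next highest 311.7), and in DCs Serpinb2 was 180.8 CPM (23.87), Anxa2 1414 CPM (825.4) and S100a10 868.9 CPM (326.3), while Serpinb2 in the T class was 77.14 CPM (6.503). Library 3, tag 12 stood out in DCs, with Serpinb2 at 271.2 CPM (34.99) and S100a10 at 618.5 CPM (297.4), and library 3, tag 7 in the T class, with S100a10 at 683.9 CPM (469.1). These 3 tags also had the highest macrophage Serpinb2. Plat stood out in monocytes of library 1, tag 9 at 48.58 CPM (6.188) and in neutrophils of library 1, tag 7 at 3.796 CPM (0), which is 1 molecule. It also did in the T class of library 1, tag 10 at 22.48 CPM (8.421) and in the B class of library 2, tag 5 at 26.84 CPM (5.701). Plau stood out in the B class of library 2, tag 4 at 132.2 CPM (50.82) and of library 3, tag 9 at 206.1 CPM (89.88).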

How the results depend on the processing

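Of 783 tests of single genes under an alternative setting, 742 kept their side of the threshold, 15 lost the call and 22 gained one. Another 4 reversed in direction with a call in either fit. A change of direction without a call in either fit was counted among the 742. Serpinb2 against monocytes, for example, went from 0.47 to -0.29 with the macrophage gate at 0.5% C1q. Serpinb2 between macrophages and monocytes reversed to -1.30 without Prg4 and Gata6 cells in both classes (a setting chosen after seeing the data), and between macrophages and the B class to 1.49 without B-class cells holding C1q. With the macrophage gate at 0.5% C1q, Plaur reversed to -0.38 and S100a10 to -0.27 against DCs. The number of the 6 genes called, 5 against monocytes, was 3 without library 1; against DCs it was 3, and 5 without a filter on low counts and 5 with the 0.5% gate; against the B class it was 3, and 5 with sums per library and 5 without C1q-holding B-class cells. Leaving out each library in turn gave 3 to 6 members called against monocytes, 4 to 4 against neutrophils, 3 to 4 against DCs, 4 to 6 against the T class, 3 to 3 against the B class, 4 to 5 against fibroblasts and 5 to 5 in both macrophage splits. Without the tag as replicate block, 62 of 63 tests kept their call, and Plat became higher in Arg1-high macrophages (0.89, adjusted p = 0.0341, edgeR). The counts of members called were then 5, 4, 3, 5, 3, 5, 6 and 5 in the 8 comparisons, in the order of the plot of differences. The shares of all genes called, given above by comparison, belong to the main setting and are not given for the alternatives. These counts of members therefore cannot be read against all genes. DESeq2's size factors and adjustment over all 23 comparisons changed none of 63 calls. With sums per library S100a10 against fibroblasts (-0.20) and Plat against monocytes (-1.56) lost their calls; the cause was not tested. Not run for lack of tags were at least 50 cells per tag for macrophages against fibroblasts and for 8 pairs of other classes, monocytes against neutrophils without library 1, neutrophils against fibroblasts without library 3, macrophages against fibroblasts without Prg4 and Gata6 cells, and the Prg4 and Gata6 split among Arg1-low macrophages, which had 64 such cells. Depth limits Plat outside fibroblasts, where most tags held few molecules, and Plau and Serpinb2 in neutrophils, at a median of 3997 molecules per cell.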
